A study of Mus musculus with 9 samples.

Results

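The testis and replacement histone variants examined here are 10 genes, of 32035 genes measured, chosen by symbol, with earlier results of these data known. They are the testis linker histone genes H1fnt (also H1f7), Hils1 (H1f9) and Hist1h1t (H1f6), the somatic replacement linker histone gene H1f0, the testis core histone genes Hist1h2ba (H2bc1) and Hist1h2aa (H2ac1), the genes H3f3a and H3f3b for histone H3.3, and the H2A variant genes H2afx and H2afz. All 10 passed the filter on low counts in each comparison. RNA came from whole testes of male C57Bl6/N mice aged 15 weeks, with 3 WT, 3 Kpna6ΔIBB/ΔIBB and 3 Kpna6-/- samples. Kpna6 encodes importin α7 (karyopherin α6), an adaptor that carries proteins with a nuclear localization signal into the nucleus together with importin β. In Kpna6ΔIBB/ΔIBB mice exon 2 was deleted, and the truncated protein that remains cannot bind importin β. In Kpna6-/- mice a gene trap lies in intron 1, but by the account of the study a testis-specific first exon downstream of the trap still gives full-length protein in germ cells. Both alleles are constitutive, so somatic and germ cells carry them. Neither labels nor methods say whether any of the mice were littermates. P-values set a group difference against the variation among these samples alone, which edgeR estimates partly across genes.

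Linker histones (H1) bind the DNA between nucleosomes, and core variants replace standard H2A, H2B or H3 inside the nucleosome. Male germ cells exchange much of their histone complement for such variants during meiosis and after it, before transition proteins and then protamines take over the chromatin of elongating spermatids. Most standard histone genes are transcribed during DNA replication into RNA that ends in a stem-loop without a poly(A) tail, whereas replacement variants are made outside replication from polyadenylated RNA. The libraries were made from poly(A) RNA, and whether this affected the levels of the genes of the histone cluster was not tested.

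The counts assigned to genes ranged from 24859751 to 31484692 per sample. The targeted gene Kpna6 had a log2 fold change of -1.79 (adjusted P = 1.94e-05, edgeR) in Kpna6ΔIBB/ΔIBB against WT, and of -0.18 (adjusted P = 0.586) in Kpna6-/- against WT. Its summed level was 31.96 to 34.8 TPM (a level corrected for transcript length and library total) in the Kpna6ΔIBB/ΔIBB, 134 to 141 in the Kpna6-/- and 98.3 to 176 in the WT testes, so that this gene did not separate the Kpna6-/- from the WT samples.

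The annotation (GENCODE M21, GRCm38) places the members on 6 chromosomes. Hils1 (ENSMUSG00000038994) is a single-exon gene on the plus strand of chromosome 11 from 94967593 to 94968456. H1fnt (ENSMUSG00000048077) has 1 exon on the minus strand of chromosome 15 from 98255986 to 98257293. H1f0 (ENSMUSG00000096210) is on the same chromosome, on the plus strand from 79028450 to 79030504. Hist1h1t (ENSMUSG00000036211) lies in the histone cluster of chromosome 13 from 23695814 to 23696725 on the plus strand. In the same cluster Hist1h2ba (ENSMUSG00000050799) runs from 23933773 to 23934156 on the minus strand and Hist1h2aa (ENSMUSG00000060081) from 23934462 to 23934851 on the plus strand, and these 2 neighbours point away from each other with 305 bases between their annotated starts. H3f3a (ENSMUSG00000060743) is on chromosome 1 from 180800832 to 180813943, minus strand. H3f3b (ENSMUSG00000016559) is on chromosome 11 from 116021912 to 116027962, minus strand. H2afx (ENSMUSG00000049932) has 1 exon on chromosome 9 from 44334694 to 44336077, and H2afz (ENSMUSG00000037894) is on chromosome 3 from 137864487 to 137866922, both on the plus strand.

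Promoter windows of 250 bases before and 50 bases after the transcription start were matched for 9 of the 10 genes in the RefSeq table (GRCm38.p6). H2afx had no entry. The stretches printed next show the promoter elements of the genes of the histone cluster, whose levels were low, and of H1fnt, whose level was high. None of them overlaps an annotated exon. They were searched on both strands for the CCAAT box, the TATA box with the letters TATAAA, the octamer ATTTGCAT bound by POU factors, the core TGACG of the cyclic AMP response element and the GC box with the letters GGGCGG, and capitals mark each match on either strand. The first runs between Hist1h2ba and Hist1h2aa at chr13:23934245-23934410, plus strand, from the TATA box of Hist1h2ba, which reads backwards here, to that of Hist1h2aa. The second lies from position -91 to -21, counted from the start of Hist1h1t, at chr13:23695720-23695790, plus strand. The third lies from position -200 to -156 of H1fnt at chr15:98257463-98257507, minus strand.
Hist1h2ba to Hist1h2aa: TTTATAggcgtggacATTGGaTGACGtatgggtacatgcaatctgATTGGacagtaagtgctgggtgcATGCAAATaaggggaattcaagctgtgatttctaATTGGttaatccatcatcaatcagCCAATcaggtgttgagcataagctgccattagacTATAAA
Hist1h1t: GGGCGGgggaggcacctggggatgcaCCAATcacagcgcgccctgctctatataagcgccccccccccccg
H1fnt: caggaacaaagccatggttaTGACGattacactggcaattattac

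The region shared by Hist1h2ba and Hist1h2aa held 4 CCAAT boxes, 1 octamer and 1 TGACG between its 2 TATA boxes. The TATA box of Hist1h2aa lay at positions -32 to -27 and that of Hist1h2ba at -94 to -89 from the RefSeq start. The annotated models of these 2 genes, of 390 and 384 bases, hold only coding sequence with its stop codon. Hist1h1t had 1 CCAAT box at -65 to -61 and 1 GC box. Its stretch also holds the letters tatataag, which the search for the exact letters TATAAA did not cover. H1fnt had a TGACG at -180 to -176 and none of the other motifs, and Hils1 had a CCAAT box at -203 to -199 and none of the others. Among the H3.3 genes, the window of H3f3b held 4 CCAAT boxes, a TATA box at -27 to -22, an octamer and 2 TGACG, and that of H3f3a held 1 CCAAT box and 6 GC boxes, some of which overlap, but no TATA box. Of 32851 such windows in the table, 37.4% held CCAAT, 13.6% TATAAA, 1.74% the octamer, 20.8% TGACG and 35.7% GGGCGG. The full element TGACGTCA, which contains TGACG and was present in 1.79% of all windows, was in none of the 9.

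In WT testes the levels of the 10 genes, compared per length in TPM, fell into an abundant and a scarce group. Hils1, a linker histone of spermatids, was the most abundant member with 897 ± 29.9 TPM (SD, n = 3), at rank 123 of all 32035 genes. H1fnt, which encodes the spermatid linker histone H1T2 needed for nuclear condensation, had 657 ± 12.7 TPM. H3f3a and H3f3b, which encode the same H3.3 protein, had 530 ± 31.1 and 358 ± 30.1 TPM. H2afz, the gene of H2A.Z, a variant found at promoters, had 317 ± 4.75 TPM. The level then dropped to 45.4 ± 3.84 TPM for H2afx, whose product is phosphorylated around DNA breaks and over the silenced sex chromosomes of meiotic cells.

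The other 4 genes were at 17.2 TPM or less. Hist1h2ba, the gene of testis H2B (TH2B), had 17.2 ± 2.42 TPM, and Hist1h2aa, the gene of its partner testis H2A, had 15.9 ± 3.88 TPM. H1f0, a linker histone of differentiated cells that no longer divide, had 11.6 ± 0.702 TPM. Hist1h1t, which encodes H1t, a linker histone that appears in pachytene spermatocytes, was lowest with 5.56 ± 0.857 TPM and rank 11131. All 3 genes of the histone cluster thus lay below H2afx, H2afz and the H3.3 genes in these poly(A) libraries, and whether poly(A) selection contributed was not tested. Counts behind the 3 genes were small, with 33 to 78 for Hist1h1t, 30 to 59 for Hist1h2ba and 31 to 61 for Hist1h2aa per sample.

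Most neighbours in the order of levels were separated in WT. Hist1h2ba and Hist1h2aa were not, because their WT ranges of 14.5 to 19.1 and 12.7 to 20.2 TPM overlapped. In Kpna6ΔIBB/ΔIBB testes the ranges of Hist1h2aa, Hist1h2ba and H1f0 overlapped, and so did those of H3f3b (332 to 351 TPM) and H2afz (322 to 348 TPM), which were apart in WT and Kpna6-/- testes. The 10 genes together held 2854 ± 87.8 TPM in WT, 2753 ± 44.7 in Kpna6ΔIBB/ΔIBB and 2917 ± 12.3 in Kpna6-/- testes.

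**Figure D1:**
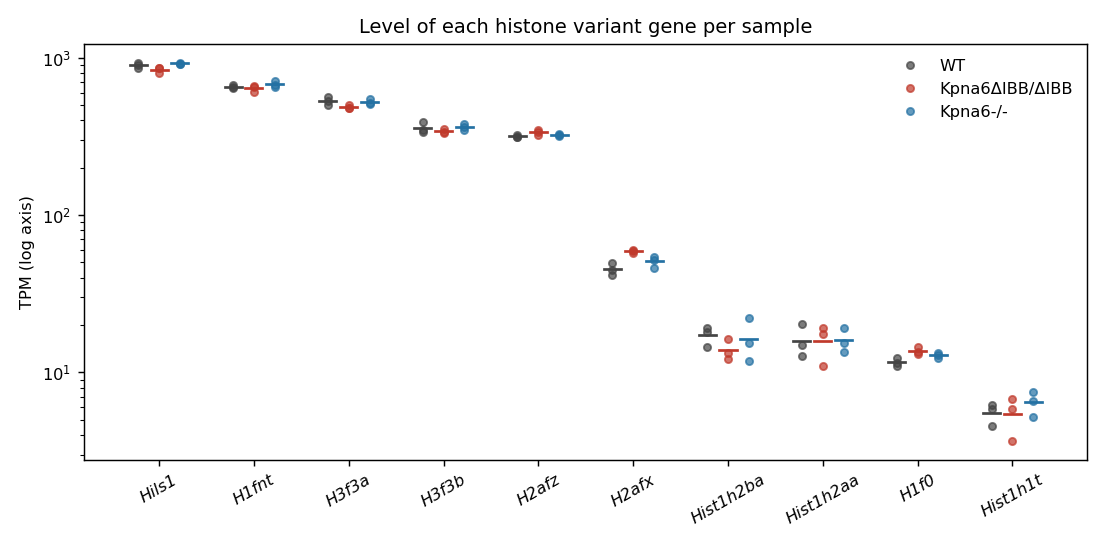
TPM of each gene on a log axis, in the order of the WT means. Points are samples and short lines group means, with 3 samples per group; the 3 genes of the histone cluster and H1f0 sit below H2afx in every sample, and Hils1 above all others.

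The Kpna6ΔIBB/ΔIBB testes were compared with WT to see which histone variants differed when the truncated protein was the only product of the gene. Both spermatid linker histone genes and both H3.3 genes fell by 10.55% (H1fnt) to 14.3% (H3f3a), and H2afx rose by 19.3%. These 5 of 10 members passed the edgeR quasi-likelihood test at an adjusted P below 0.05, 1 higher and 4 lower, where 36.6% of the 18797 genes tested passed it, 17.7% higher and 18.9% lower. The same 5 genes were those whose groups did not overlap, a property of 49.9% of all genes tested. The median log2 fold change of the 10 members was -0.15, and that of all genes 0.01. The changes were small beside those of other genes, since the median size of a called change among all genes was 0.41 on the log2 scale and the largest of a called member was 0.25.

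Values per sample are given as normalized CPM (counts per library total after TMM scaling over the 9 samples), in the order of replicates 1 to 3. Hils1 had 447, 428.5 and 446 normalized CPM in WT and 385.5, 359 and 387 in Kpna6ΔIBB/ΔIBB testes. All mutant samples were lower than all WT samples, and the log2 fold change was -0.22 ± 0.04 (SE; adjusted P = 0.00157, edgeR). H1fnt had 573, 579 and 578 normalized CPM in WT and 531, 521.5 and 489.6 in Kpna6ΔIBB/ΔIBB testes. Again the groups were apart, with a log2 fold change of -0.16 ± 0.04 (adjusted P = 0.00678, edgeR). The third testis linker histone gene, Hist1h1t, had 2.23, 2.37 and 1.71 normalized CPM in WT and 1.26, 2.01 and 2.36 in the mutant. Here the groups overlapped and the 95% confidence interval of the log2 fold change, -0.68 to 0.38, included the changes of the other two.

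The H3.3 genes fell by similar amounts. H3f3a had 402, 403 and 407 normalized CPM in WT and 338, 337 and 360.2 in Kpna6ΔIBB/ΔIBB testes. The log2 fold change was -0.22 ± 0.04 (adjusted P = 0.000967, edgeR), the lowest P-value among the members in this comparison. H3f3b had 477, 491 and 540.3 normalized CPM in WT and 435, 423 and 455 in the mutant. Its WT samples spread more widely, and the log2 fold change was -0.20 ± 0.05 (adjusted P = 0.0106, edgeR). Without Kpna6ΔIBB/ΔIBB replicate 2 the call of H3f3b was lost, with a log2 fold change of -0.17 and an adjusted P of 0.0521.

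H2afx was the only member that rose. It had 39.0, 42.2 and 44.9 normalized CPM in WT and 50.2, 48.2 and 51.6 in Kpna6ΔIBB/ΔIBB testes, with no overlap. The log2 fold change was 0.25 ± 0.06 (adjusted P = 0.00786, edgeR). H2afz had 207.5, 212 and 201 normalized CPM in WT and 207, 201 and 192 in the mutant. Those groups overlapped, and the interval of the log2 fold change was -0.14 to 0.05, with a direction that turned under other scalings.

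The testis core histones and H1f0 did not pass the test. Hist1h2ba had 1.79, 1.71 and 1.38 normalized CPM in WT and 1.15, 1.45 and 1.04 in Kpna6ΔIBB/ΔIBB testes. Its log2 fold change of -0.42 ± 0.22 was larger than that of any called member, but the groups overlapped and the adjusted P was 0.169 (edgeR). Hist1h2aa had 1.45, 2.01 and 1.27 normalized CPM in WT and 1.72, 1.635 and 0.975 in the mutant. Its interval, -0.73 to 0.47, allowed changes in either direction at this depth. H1f0 had 18.65, 19.7 and 20.4 normalized CPM in WT and 20.0, 22.3 and 20.9 in the mutant, and the interval of its log2 fold change was -0.05 to 0.27.

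**Figure D2:**
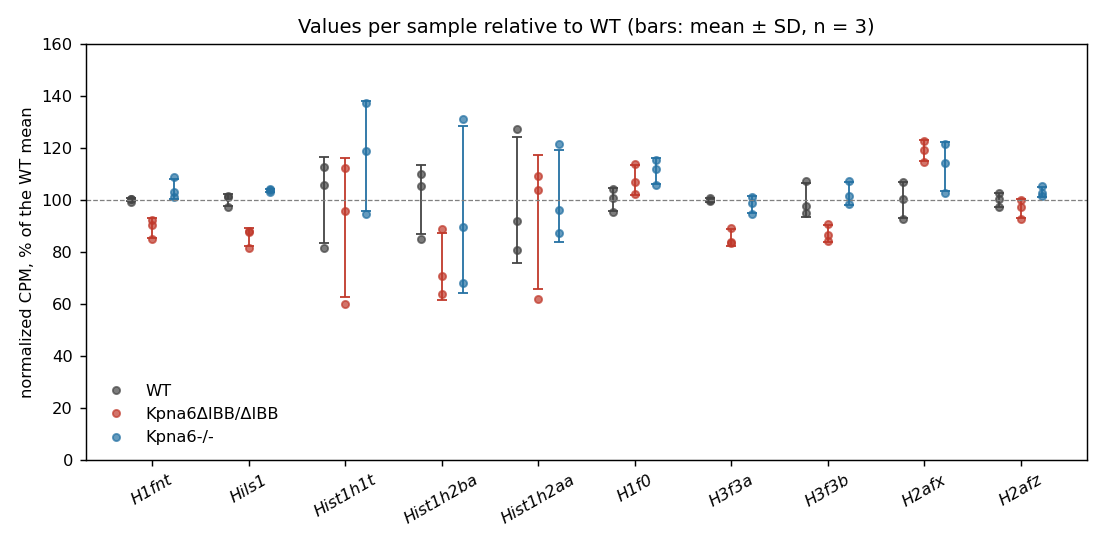
Normalized CPM of each gene in each sample as a percentage of the WT mean of that gene, from 0 to 160%. Points are samples and bars the mean ± SD of 3 samples; the Kpna6ΔIBB/ΔIBB points of H1fnt, Hils1, H3f3a and H3f3b lie below all WT points and those of H2afx above them, while the 3 genes of the histone cluster spread widely in all groups.

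The Kpna6-/- testes, whose germ cells keep the full-length protein by the account of the study, were compared with WT in the same way. None of the 10 members passed the edgeR test at an adjusted P below 0.05, where 1.6% of the 18681 genes tested passed, 0.889% higher and 0.712% lower. At an unadjusted P below 0.05 there were 2 members, H1f0 and H2afx, against 14.9% of all genes. DESeq2 and limma also called 0 of 10. Of all genes, DESeq2 called 226 higher and 202 lower of 16613 tested. With limma on log2(TPM + 1) values 13 were higher and 15 lower of 20075. The groups did not overlap for H1fnt, Hils1 and H1f0, a property of 20% of all genes in this comparison, and the median log2 fold change of the members was 0.05 beside 0.00 for all genes.

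Each of the genes that had fallen in Kpna6ΔIBB/ΔIBB testes was near its WT level in Kpna6-/- testes. Hils1 had 454, 458 and 456 normalized CPM, with an interval of the log2 fold change against WT of -0.02 to 0.12. H1fnt had 627, 594 and 584 normalized CPM and an interval of -0.02 to 0.14. All Kpna6-/- samples were thus above all WT samples for these 2 genes, without passing the test (adjusted P = 0.551 and 0.488, edgeR). H3f3a had 382, 399 and 408 normalized CPM and H3f3b 495, 511 and 539, both overlapping WT, with intervals of -0.11 to 0.05 and -0.07 to 0.14.

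H2afx and H1f0 had the lowest unadjusted P-values in Kpna6-/- testes. H2afx had 43.2, 48.1 and 51.1 normalized CPM, with a log2 fold change against WT of 0.17 ± 0.07 (adjusted P = 0.272, edgeR). One of these samples lay within the WT range. H1f0 had 20.7, 21.9 and 22.6 normalized CPM, all above WT, with a log2 fold change of 0.15 ± 0.07 (adjusted P = 0.332, edgeR). H2afz had 212, 210.0 and 218 normalized CPM and an interval of -0.04 to 0.13. The genes of the histone cluster again spread widely, with 1.99, 2.50 and 2.88 normalized CPM for Hist1h1t, 2.14, 1.46 and 1.11 for Hist1h2ba and 1.38, 1.915 and 1.515 for Hist1h2aa.

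The 2 mutant lines were compared directly, since a call in one line and none in the other does not show that they differ. Hils1, H1fnt, H3f3a and H3f3b were lower in Kpna6ΔIBB/ΔIBB than in Kpna6-/- testes, and no member was higher. These 4 of 10 members passed the edgeR test, where 30.3% of the 18752 genes tested passed, 16.8% lower and 13.5% higher. Hils1 differed most among them, by -0.28 ± 0.04 on the log2 scale (adjusted P = 0.000138, edgeR). The difference was -0.24 ± 0.04 for H3f3b (adjusted P = 0.000981), -0.23 ± 0.04 for H1fnt (adjusted P = 0.000886) and -0.20 ± 0.04 for H3f3a (adjusted P = 0.00228). The median over the 10 members was -0.22, and that of all genes 0.00. The groups did not overlap for 5 members, the 4 named and H2afz, compared with 44.4% of all genes. For H2afz the difference was -0.10 ± 0.04 (adjusted P = 0.0632). For H2afx the log2 difference was 0.07, with an interval of -0.06 to 0.21 and overlapping groups, but its call depended on the scaling. By library size the difference was 0.17 (adjusted P = 0.0559, edgeR), and on log2(TPM + 1) values, where limma called H2afx and Hils1 alone, it was 0.21 (adjusted P = 0.0494).

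**Figure D3:**
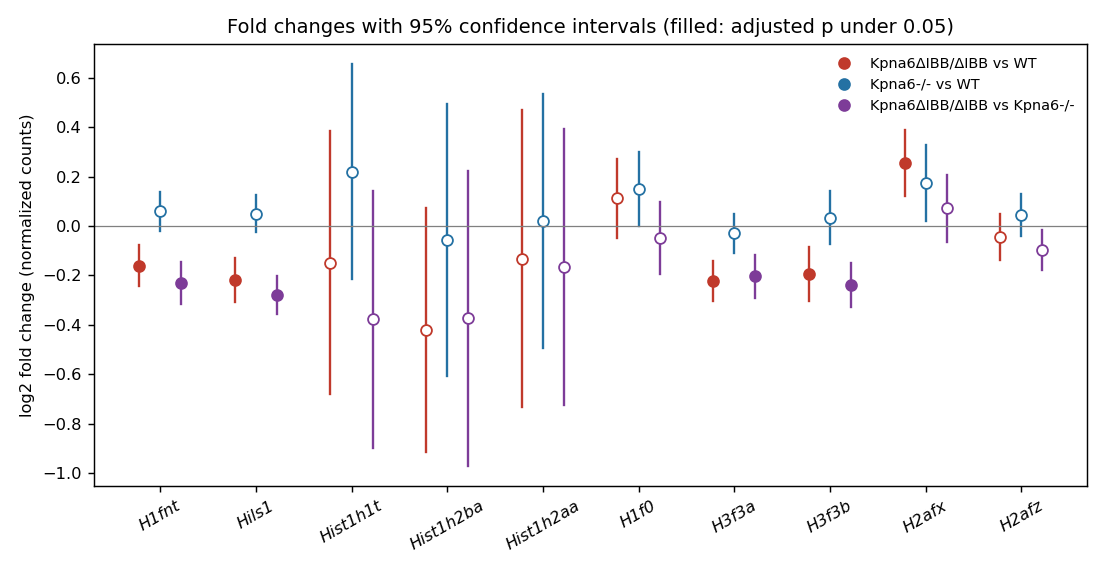
Log2 fold change of each gene in the 3 comparisons with its 95% confidence interval (edgeR, 3 samples per group). Filled points have an adjusted P below 0.05: 5 genes in Kpna6ΔIBB/ΔIBB against WT, 0 in Kpna6-/- against WT and 4 in Kpna6ΔIBB/ΔIBB against Kpna6-/-; the intervals of the 3 genes of the histone cluster are the widest.

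How the libraries were scaled bore on the size of these changes, and on the calls. Scaling by library size alone moved the median of all genes in Kpna6ΔIBB/ΔIBB against WT from 0.01 to 0.11 on the log2 scale, and turned 3327 higher and 3547 lower genes into 5416 higher and 2326 lower. Of all genes, 28.8% were then higher and 12.4% lower, and limma on log2(TPM + 1) values, where the median was 0.09, called 18.8% higher and 7.9% lower. Relative to the median of all genes, Hils1 and H3f3a had -0.23, H3f3b -0.20, H1fnt -0.17 and H2afx 0.25 with TMM and with library size alone. The change between those scalings moves the median together with every member, so this match was fixed in advance. For log2(TPM + 1) values the distances from the median were -0.18 (Hils1), -0.20 (H3f3a), -0.16 (H3f3b), -0.13 (H1fnt) and 0.285 (H2afx). In absolute terms Hils1, H3f3a and H2afx remained called by library size, together with H1f0 (0.21, adjusted P = 0.0365, edgeR), while H1fnt and H3f3b were not (log2 fold changes -0.06 and -0.10). On log2(TPM + 1) values limma called only H2afx (0.37, adjusted P = 0.00892), and Hils1 had -0.09, H3f3a -0.12, H3f3b -0.07 and H1fnt -0.04 there. In TPM itself the groups overlapped for H1fnt (605 to 664 in Kpna6ΔIBB/ΔIBB and 647 to 671 in WT), H3f3a (482 to 502 and 500.1 to 562) and H3f3b (332 to 351 and 336 to 391.9). Of the 4 genes that fell, Hils1 alone stayed apart, with 801 to 861 TPM in Kpna6ΔIBB/ΔIBB and 864 to 922 in WT testes.

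H2afx was called in 17 of 17 alternatives in this comparison, Hils1 and H3f3a in 15, H1fnt in 14 and H3f3b in 13. All 5 kept their direction in every one. Against Kpna6-/- testes Hils1 was called in 17 of 17 alternatives, H1fnt and H3f3b in 15 and H3f3a in 14.

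**Figure D4:**
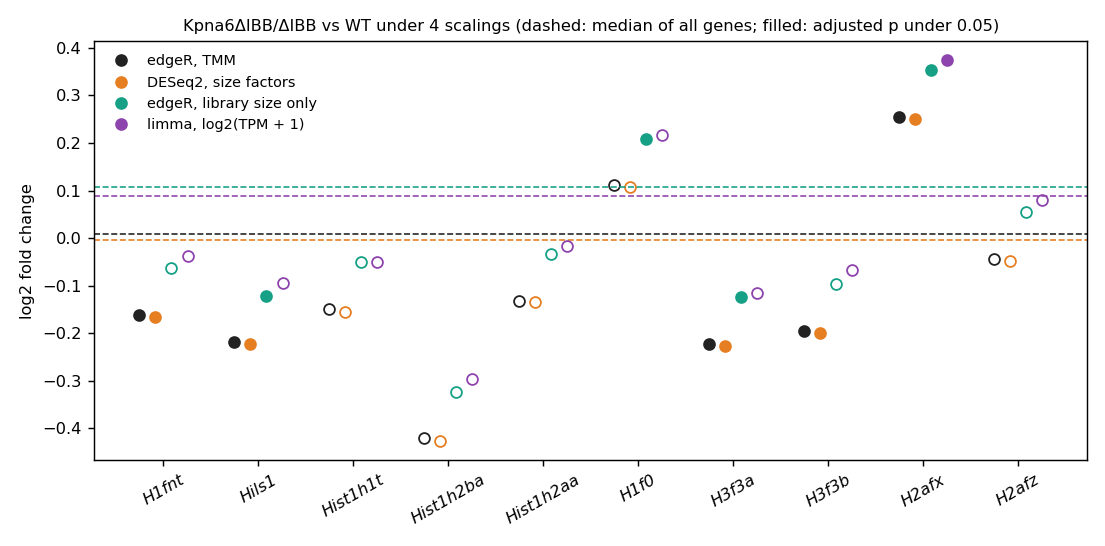
Log2 fold change of each gene in Kpna6ΔIBB/ΔIBB against WT under 4 ways of scaling and testing, with a dashed line at the median of all genes in each and filled points at an adjusted P below 0.05. The line sits at 0.01 with TMM and at 0.11 with library size alone; H2afx is filled in all 4, and H2afz changes sign.

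Shares within a library do not depend on scaling between libraries, and members of the same role were compared in this way by TPM. H3f3b gave 40.3% ± 0.774 (SD, n = 3) of the RNA of the 2 H3.3 genes in WT, 41.1% ± 0.255 in Kpna6ΔIBB/ΔIBB and 40.9% ± 0.331 in Kpna6-/- testes. The groups overlapped in each pair. Although the protein is the same, the 2 coding sequences differ at 95 of 411 bases, 81 of them at the last codon position, an identity of 76.9%. Hils1 gave 57.5% ± 0.686 of the testis linker histone RNA in WT, 56.5% ± 1.76 in Kpna6ΔIBB/ΔIBB and 57.3% ± 0.999 in Kpna6-/- testes, with overlap in each pair. Hist1h1t gave 0.357%, 0.367% and 0.402% of that RNA in the same order.

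The balance between the 2 H2A variants was the share that separated groups. H2afx gave 11.7%, 12.3% and 13.6% of the sum of H2afx and H2afz in WT, and 14.6%, 14.5% and 15.8% in Kpna6ΔIBB/ΔIBB testes. The values in Kpna6-/- testes were 12.5%, 13.9% and 14.2%. Kpna6ΔIBB/ΔIBB samples were above all others, by 2.45 percentage points over WT and 1.42 over Kpna6-/-. In each of these 2 pairs the two-sided exact permutation test gave P = 0.1, which is the lowest possible with 3 against 3 samples, and 0.9 after adjustment over the 18 share tests. Hist1h2aa gave 47.8% ± 4.63 of the testis core histone RNA in WT, 52.9% ± 5.78 in Kpna6ΔIBB/ΔIBB and 49.98% ± 10.4 in Kpna6-/- testes, a spread that leaves differences of several points undetectable at this depth.

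Several transcripts made up the H3.3 and H2A.Z genes. For H3f3a, the transcript H3f3a-207 held 46.0% of the TPM in WT, H3f3a-201 held 28.9% and H3f3a-205 held 19.8%. In Kpna6ΔIBB/ΔIBB testes H3f3a-201 held 25.4% ± 0.562, below the 28.9% ± 1.13 of WT with no overlap (two-sided exact permutation test, P = 0.1, the smallest possible), and H3f3a-207 held 49.2% ± 1.20. These transcript shares were tested after their values had been seen. H3f3b-201 held 94.1% of the TPM of H3f3b in WT, and H2afz-201 held 96.0% of that of H2afz. The other 7 genes have 1 transcript each in the files.

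Sequence shared with other genes touched 4 members. H3f3a had 15 near-identical genes (at least 95% identity over at least 0.5 of the shorter transcript), mostly processed pseudogenes, and H3f3b had 2, each with under 1% of the count of the member. H2afz matched Tmcc1, a gene with 99.2% of the count of H2afz, over 371 bases on the opposite strand, and a processed pseudogene, Gm8203, identical over 387 bases, held 5.46% of its count. H2afx matched 1 pseudogene, with under 1% of its count. Annotated antisense, lincRNA or miRNA genes overlap exons of H3f3a, H1f0, Hist1h2aa and H2afx, and the library kit does not mark strand, so reads of overlapping genes could not be separated. Summing near-identical genes with the member left 5, 0 and 4 members called in the 3 comparisons, as in the main analysis.

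The other histone variant genes were taken as a list of 33, of which 21 passed the filter. H2al2a and H2al1g, variants of the H2A.L type that replace H2A in condensing spermatids, were its most abundant genes with 640 ± 18.5 and 180 ± 14.3 TPM in WT. In Kpna6ΔIBB/ΔIBB against WT 4 of 21 rose and none fell, where 17.7% of all genes tested rose and 18.9% fell. H2al1n rose by 0.43 and H2al2a by 0.16 on the log2 scale (adjusted P = 0.00459 and 0.0164, edgeR). H2afj, which encodes H2A.J, rose by 0.41 and Hist3h2a by 0.26 (adjusted P = 0.00144 and 0.0387). The median of the 21 was 0.18, beside 0.01 for all genes tested and -0.15 for the members. Scaling by library size and limma on log2(TPM + 1) each called 8 of 21 higher and 0 lower, where 28.8% and 18.8% of all genes were higher. The H2A.L genes are near-copies of one another, so their single values are uncertain, and H2al1c, H2al1d, H2al1f, H2al1h and H2al1i are listed at 0.

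In Kpna6-/- against WT 0 of the 21 passed the edgeR test, and 0 did so with library size scaling or limma. Few genes passed at all, with 1.6% of all genes in edgeR. By library size 168 were higher and 107 lower of 18681, and by limma 13 were higher and 15 lower of 20075. An unadjusted P below 0.05 in edgeR was seen for 5 of the 21, and for 14.9% of all genes. Against Kpna6-/- testes, H2afj and H2afv, the latter a second gene for H2A.Z, were higher in Kpna6ΔIBB/ΔIBB, by 0.67 and 0.20 (adjusted P = 0.000105 and 0.0349, edgeR), and none was lower. These were 2 of 21, where 13.5% of all genes were higher and 16.8% lower. In that comparison library size scaling called 3 of 21 higher, with H2al1a added, and limma called 7, with H2al1a, H2al1g, H2al2a, H2afb1 and H2afb3 added, where 26.3% and 18% of all genes were higher. The summed level of the list was 1797 to 1844 TPM in WT, 2083 to 2308 in Kpna6ΔIBB/ΔIBB and 1920 to 1975 in Kpna6-/- testes, without overlap between any 2 groups.

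Histone chaperones and exchange factors deposit or remove these variants. Of 29 such genes, 6 rose and 5 fell in Kpna6ΔIBB/ΔIBB against WT, with a median of 0.00. That is close to the shares of all genes in this comparison, 17.7% higher and 18.9% lower. Among factors of H3.3 deposition, Hira rose by 0.23 and its partner Cabin1 by 0.15 on the log2 scale (adjusted P = 0.0377 and 0.0208, edgeR), whereas Ubn2, another partner, had -0.35 (adjusted P = 0.000125). Atrx, which places H3.3 at heterochromatin, rose by 0.30 (adjusted P = 0.00752). Hira and Atrx kept their calls with library size scaling. On log2(TPM + 1) values limma called neither Hira (0.29, adjusted P = 0.0568) nor Atrx (0.24, adjusted P = 0.294). Among factors of H2A.Z, Anp32e, a chaperone that removes it, rose by 0.51 (adjusted P = 0.000702), and parts of complexes that load it differed among themselves. Ep400 and Actl6a had -0.15 and -0.24 (adjusted P = 0.0146 and 0.00375, edgeR), while Srcap (0.09), Vps72 (0.14), Znhit1 (-0.04), Ruvbl1 (-0.0023) and Ruvbl2 (0.0058) did not pass the test. With library size scaling Srcap (0.19) and Vps72 (0.24) were higher and Actl6a (-0.14) lower, and on log2(TPM + 1) values Srcap, Vps72 and Ruvbl2 were higher and neither Ep400 nor Actl6a was called. The histone chaperones Anp32b and Set rose by 0.30 and 0.18. Chd5, a chromatin remodeller of spermatids, had -0.26 and Nasp, a carrier of H1 and H3, had -0.10 (adjusted P = 0.000613 and 0.0487).

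Scaling changed how many of these genes were called. With library size scaling 11 of 29 were higher and 3 lower, where 28.8% and 12.4% of all genes were, and Nasp moved to 0.00. On log2(TPM + 1) values 9 were higher, and 1, Ubn2, was lower, where the shares of all genes were 18.8% and 7.9%. The 2 most abundant genes of the list, Nasp and Znhit1, a subunit of a complex that loads H2A.Z, had 647 ± 25.1 and 424 ± 12.8 TPM in WT. In Kpna6-/- against WT 0 of 29 passed in any of these 3 analyses, where few genes passed at all. Of all genes, 1.6% passed in edgeR. By library size 168 were higher and 107 lower of 18681, and by limma 13 were higher and 15 lower of 20075. Of the 29 genes, 4 had an unadjusted P below 0.05 in edgeR, as did 14.9% of all genes. Against Kpna6-/- testes, Anp32e (0.42), Anp32b (0.23), Vps72 (0.21) and Set (0.20) were higher in Kpna6ΔIBB/ΔIBB, and Ubn2 (-0.26), Chd5 (-0.21), Ubn1 (-0.15), Ssrp1 (-0.14) and Nasp (-0.13) were lower. Among all genes tested, 13.5% were higher and 16.8% lower in edgeR. These 4 higher and 5 lower genes became 9 higher and 2 lower with library size scaling, where 26.3% and 10.8% of all genes were higher and lower, and 11 higher and 1 lower with limma, where the shares were 18% and 6.42%. Ubn1, Ssrp1 and Nasp lost their calls under both, and Chd5 lost its call under limma.

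Marker genes of several cell types moved with the genotype, and in bulk tissue fewer cells of a type and less RNA per cell cannot be told apart. The transition protein and protamine genes Tnp1, Tnp2, Prm1 and Prm2, which act after the histone variants, had a median of -0.35 on the log2 scale in Kpna6ΔIBB/ΔIBB against WT with 4 of 4 lower, and together held 50650 to 58710 TPM, compared with 60350 to 70610 in WT and 68730 to 70220 in Kpna6-/- testes. Of 10 markers of elongating spermatids, which include these 4, 10 were lower (median -0.37), and of 10 markers of round spermatids 9 were lower (median -0.33). Among all genes tested, 17.7% were higher and 18.9% lower in this comparison. The values of Hils1, H1fnt, H3f3a and H3f3b, -0.16 to -0.22, lay above the span of the elongating spermatid markers, from -0.59 (Tnp1) to -0.26 (Tnp2). That gap was small, with -0.22 ± 0.04 (SE) for H3f3a beside -0.26 ± 0.06 for Tnp2. They lay within the spans, lowest to highest gene, of all other germ cell lists. Except for pachytene cells these spans include 0, so lying within them does not tell the lists apart. The spans ran from -0.72 (Catsper3) to 0.12 (Tex101) for round spermatids and from -0.27 (Pgk2) to -0.0082 (Ccna1) for pachytene cells. For leptotene to zygotene cells the span was -0.29 (Rec8) to 0.40 (Dmc1), and for spermatogonia -0.50 (Gfra1) to 0.41 (Dmrt1). Of 10 pachytene markers 3 were lower (Pgk2, Mlh3 and Ldhc) and 0 higher (median -0.11). Of 10 leptotene to zygotene markers 3 were lower (Rec8, Spo11 and Sycp2) and 2 higher (Dmc1 and Prdm9; median -0.09). Of 10 spermatogonial markers 3 were higher (Dmrt1, Uchl1 and Kit) and 2 lower (Gfra1 and Ddx4; median 0.24).

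These counts also moved with the scaling, as did the shares of all genes. By library size 28.8% of all genes were higher and 12.4% lower, and by limma 18.8% and 7.9%. By library size 9 elongating spermatid markers were lower, 8 round spermatid markers were lower and 1 (Tex101) higher, and 3 of the 4 transition protein and protamine genes were lower. On log2(TPM + 1) values limma called 8 elongating and 5 round spermatid markers lower, Tex101 higher and 2 of the 4 genes, Tnp1 and Prm2, lower. Pgk2 was the pachytene marker that remained lower in both, with a list median of -0.02 by library size and 0.03 by limma. Of the leptotene to zygotene markers 2 were higher in both, with 1 lower by library size and 0 by limma, and their medians were 0.01 and 0.04. Of the spermatogonial markers 6 were higher and 1 lower by library size, and 2 were higher and 0 lower by limma. The part of these shifts in the values of the histone variants was not tested.

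Several somatic markers rose in Kpna6ΔIBB/ΔIBB testes. All 12 Sertoli cell markers rose (median 0.59), and their summed level was 1623 to 1985 TPM, compared with 1033 to 1132 in WT and 1223 to 1303 in Kpna6-/- testes. They included Clu, the most abundant, with a log2 fold change of 0.59, and Aard with 0.77, and all 12 were also higher by library size and by limma. Of 8 genes each, 3 markers of macrophages (Mrc1, C1qa and Cd68), 3 of peritubular and endothelial cells (Acta2, Tagln and Myh11) and 2 of Leydig cells (Lhcgr and Hsd3b1) rose, and none fell. Among all genes tested, 17.7% rose and 18.9% fell. The list medians were 0.37 for macrophages, 0.28 for peritubular and endothelial cells and 0.01 for Leydig cells. The summed level of the Leydig cell markers was 1979 to 2840 TPM in Kpna6ΔIBB/ΔIBB and 1985 to 3019 in WT testes. By library size and by limma 7 and 4 macrophage markers were higher, where 28.8% and 18.8% of all genes were. Markers of epididymis and seminal vesicle summed to 25.9 to 99.6 TPM in Kpna6ΔIBB/ΔIBB, 10.3 to 11.4 in WT and 15.6 to 21.04 in Kpna6-/- testes, and Lcn5 was listed at 0. Of the 3 tested, Svs5 and Crisp1 were higher and Svs4 lower in edgeR, and limma called Svs5 alone. Crisp1 had 0.22, 1.92 and 76.97 TPM in the Kpna6ΔIBB/ΔIBB testes and at most 0.386 in WT, so 1 library, replicate 3, held nearly all of it, whereas Svs5 had 29.8, 22.2 and 20.9 TPM compared with 6.90 to 9.75 in WT. In Kpna6-/- against WT the Sertoli markers Aard and Clu and the seminal vesicle gene Svs5 rose and the spermatogonial marker Gfra1 was lower, of which limma called Aard alone. Further, 0 of 20 round and elongating spermatid markers passed the edgeR test, where 1.6% of all genes passed. An unadjusted P below 0.05 was seen for 2 round and 1 elongating spermatid markers, and for 14.9% of all genes. Whether the rise of H2afx moved with these cell types was not tested.

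**Figure D5:**
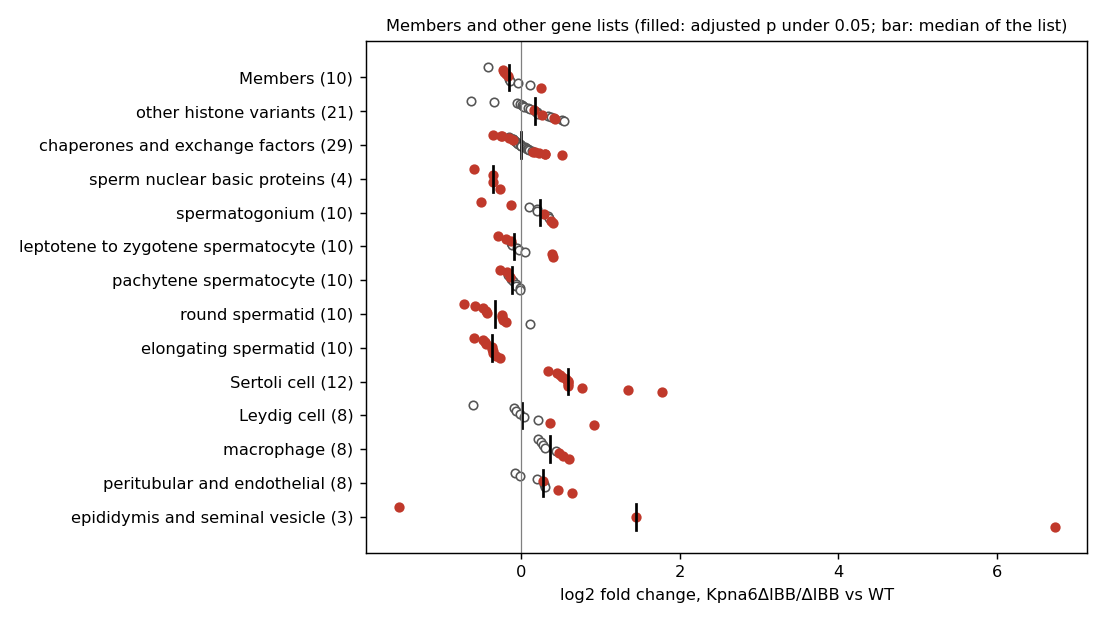
Log2 fold change in Kpna6ΔIBB/ΔIBB against WT (edgeR, TMM) of the 10 members and of the genes of each other list that passed the filter, with their number in parentheses. Filled points have an adjusted P below 0.05 and vertical bars are medians; the members' median is -0.15, that of the other histone variants 0.18, and those of round and elongating spermatid markers -0.33 and -0.37. Elongating spermatid markers include the sperm nuclear basic proteins.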

How the data were processed

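RNAseq of 9 whole testes (3 per genotype) was analysed. By the study's account, reads of poly(A) libraries were quantified against mm10 transcripts with kallisto (version 0.45 in the submitters' processing notes). The authors deposited an estimated count and a TPM value per transcript for each sample, with no scaling between samples beyond TPM. Which transcript release was used is not given in the sources used here.

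Of 96626 transcripts, 95301 were assigned to 32035 genes of GENCODE M21 (GRCm38), and 1325 were left out. Lengths agreed between files and annotation for 93.3% of the assigned transcripts. Both values were summed per gene. Gene counts, rounded, were filtered with filterByExpr, scaled by TMM and tested pairwise, using only the 6 samples of each pair, by quasi-likelihood in edgeR 4.0.16 (R 4.3.3) and Benjamini-Hochberg adjustment over all genes tested. The study used sleuth, which was not used here. Shares were tested by exact permutation. The edgeR procedure was run on simulated data with changes larger than those of the members, so that run does not cover changes of their size.

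All 10 members are named. For the other histone variants and the chaperones the called genes and the 2 most abundant genes are named; cell type markers are given as counts, with names chosen after their values were seen. Also named are transcripts with at least 10% of a member's TPM and near-identical genes with at least 10% of its count. Members and lists were chosen with earlier results of these data known.

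Alternatives were DESeq2 1.42.0, library size scaling, no filter, a minimum of 5 counts in 0.47 of samples, the replicate block, all 9 samples, length-scaled TPM, limma 3.58.1 on log2(TPM + 1) and log2(TPM + 0.1), protein-coding transcripts, near-identical genes summed (blastn 2.17.0, at least 95% identity over 0.5 of the shorter transcript) and each sample left out. Fold changes from limma are on the log2(TPM + pseudocount) scale. Scaling alternatives for the other lists were added after the data were seen. Tables and plots used pandas 2.3.3, numpy 2.4.6, scipy 1.17.1 and matplotlib 3.10.9 in Python 3.11.15.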

Additional observations from a re-analysis of the deposited data

Results flagged for a closer look

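The changes of 4 members differed between the mutant lines in the direct edgeR test. In Kpna6ΔIBB/ΔIBB against Kpna6-/- testes the log2 difference was -0.28 for Hils1, -0.24 for H3f3b, -0.23 for H1fnt and -0.20 for H3f3a. In normalized CPM all 3 Kpna6ΔIBB/ΔIBB samples were below all 3 Kpna6-/- samples for each of these genes. Groups did not overlap for 44.4% of all genes tested. In TPM they overlapped for H1fnt (605 to 664 in Kpna6ΔIBB/ΔIBB and 656 to 710 in Kpna6-/-) and H3f3b (332 to 350.8 and 350.1 to 378). Of the 4 genes, limma on log2(TPM + 1) values called Hils1 alone. Groups of 3 samples are too small for a test of single samples that stand apart.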

How the results depend on the processing

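Leaving out 1 sample at a time gave 4 to 5 called members in Kpna6ΔIBB/ΔIBB against WT, 0 in Kpna6-/- against WT and 4 to 5 in Kpna6ΔIBB/ΔIBB against Kpna6-/-. The fifth member in the last comparison was H2afz, called without Kpna6ΔIBB/ΔIBB replicate 1. The limma analyses with pseudocounts of 1 and 0.1 called 1 and 1 members in the first comparison and 2 (Hils1 and H2afx) and 1 in the last; the cause was not tested. With the replicate block 5, 0 and 4 members were called, and the block changed no other call. Samples with the same number had correlations of their deviations between -0.05 and 0.11. With 3 samples per group these values cannot show whether the numbers pair the samples.

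Of the members' fold changes under the alternatives, 468 kept their direction and their side of the threshold, 18 lost a call, 3 gained one and 21 changed sign, none of the last with a call. By library size and by limma with pseudocounts of 1 and 0.1, H2afz had 0.054, 0.081 and 0.081 in Kpna6ΔIBB/ΔIBB against WT and 0.0022, 0.049 and 0.050 against Kpna6-/-, where H1f0 had 0.051, 0.086 and 0.092. In Kpna6-/- against WT, H3f3a had 0.0011 with length-scaled TPM and H2afz had -7.9e-06 with near-identical genes summed. Leaving out single samples gave -0.34 to 0.058 for Hist1h1t and -0.27 to 0.090 for Hist1h2aa in Kpna6ΔIBB/ΔIBB against WT, and -0.30 to 0.061 for Hist1h2aa against Kpna6-/-. In Kpna6-/- against WT it gave -0.34 to 0.13 for Hist1h2ba, -0.13 to 0.24 for Hist1h2aa and -0.0016 to 0.091 for H3f3b. Among the shares, 143 values moved by less than the spread between samples and 1 moved by more. Depth limits the genes of the histone cluster, which had at most 78 counts in a sample.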
